A study of Rattus norvegicus with 6 samples.

Results

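The cardiac sodium channel is a large pore-forming alpha subunit that carries the fast inward current of the action potential, joined by small beta subunits with an immunoglobulin fold. Beta subunits set how many channels reach the membrane and how they gate, and intracellular fibroblast growth factor homologous factors bind the alpha subunit's tail and modulate its inactivation. The genes described here are the beta subunit genes Scn4b, Scn3b and Scn2b, the alpha subunit genes Scn4a and Scn7a, and the homologous factor gene Fgf13. They are a list of 6 symbols among the 17487 in the count table, centred on the low Scn4b level after doxorubicin. Because the list was chosen by that doxorubicin-control difference, their differences are given as a description, with standard errors and no test.

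Heart RNA came from 6 adult male Wistar rats, 1 library per animal. Doxorubicin hydrochloride, an anthracycline chemotherapy drug, was given to 3 rats, the source of the treated hearts, as a weekly tail vein injection of 3.75 mg/kg for 4 weeks. The other 3 rats, the controls, received saline vehicle on the same schedule. No rat carried an allele or transgene named in the labels, and the chamber sampled and the time after the last injection were not given. Levels are CPM, counts put on the customary common library size, after scaling by trimmed mean of M-values (TMM). The libraries held 2219685 to 3508282 counts, and the floor of detection, 3 counts, was 0.852 to 1.33 CPM. Intervals cover counting error only.

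The tissue label was checked against marker genes. All 7 genes listed as ventricular cardiomyocyte markers were present, summing to 79568 to 102316 CPM in control against 73934 to 83479 CPM in treated hearts. This sum shows heart muscle and does not settle which chamber was sampled. Control library 1 stood apart from the other 5 on the first principal component, at -43.3 against -4.83 to 26.6. It also held 164 CPM of the atrial myosin light chain Myl7, against 2.06 to 6.42 CPM in the other libraries. Values without this library are given for Scn7a, Rangrf, Cdh2, Fgf12 and Hcn2. Hemoglobin transcripts, from blood left in the tissue, summed to 7132, 1937 and 2447 CPM in control hearts 1 to 3. In treated hearts 1 to 3 they summed to 649, 2283 and 2591 CPM, so control library 1 alone lay above the treated range. Of the 8 skeletal muscle markers, 6 had at most 3 counts in each library.

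Of the 6 members, 2 had next to no reads in the table. Scn2b had 1 count in each of 3 libraries and 0 in the other 3. Fgf13 was listed at 0 in all 6 libraries, which allows up to 1.33 CPM in the shallowest library. In the RefSeq gene list other genes overlap Fgf13, one of them protein-coding and on the other strand. No fold is given for either gene, because both groups were at or under the floor. Such values describe the rows of the table: strand use, multi-mapping and the annotation were not given in the sources used here, so a row near 0 cannot be read as an absent transcript. The analysis therefore rests on 4 members with reads, Scn4b, Scn3b, Scn4a and Scn7a. No transcript lengths were at hand, so levels are compared between libraries for each gene and not between genes.

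Scn4b and Scn2b are next to each other on the same strand in the RefSeq gene order. The 250 bases upstream of each annotated start are shown because Scn4b is the central gene of the list and Scn2b its neighbour. They are RefSeq sequences of the assembly GRCr8, which is not the build named for the counts, and capitals mark CG dinucleotides.
Scn4b, chr8:54343623-54343872, plus strand: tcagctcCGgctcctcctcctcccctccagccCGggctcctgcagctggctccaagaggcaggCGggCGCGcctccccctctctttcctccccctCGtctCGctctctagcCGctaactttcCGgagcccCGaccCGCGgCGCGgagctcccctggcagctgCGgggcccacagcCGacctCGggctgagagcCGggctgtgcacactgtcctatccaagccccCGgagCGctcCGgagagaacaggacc
Scn2b, chr8:54322133-54322382, plus strand: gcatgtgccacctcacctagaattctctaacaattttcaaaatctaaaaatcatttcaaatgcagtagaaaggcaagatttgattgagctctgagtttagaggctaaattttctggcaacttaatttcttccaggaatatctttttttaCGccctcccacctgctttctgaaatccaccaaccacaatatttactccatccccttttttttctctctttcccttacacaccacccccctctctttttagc

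The Scn4b window held 21 CG dinucleotides and a GC content of 71.6%. Among 33465 RefSeq windows of this length, 84.9% had fewer CG dinucleotides, and the median was 5. The Scn2b window held 1 CG dinucleotide and a GC content of 38.8%, and 7.81% of windows had fewer. Windows were found for 5 of the 6 members. Scn4a had 4 CG dinucleotides, Scn7a 2 and Fgf13 7, so Scn4b was the CG-rich one among the 5. On either strand, neither printed window held the GC box GGGCGG (in 30.5% of all windows), the TATA box TATAAA (12.9%), the core letters AGGTGT of a T-box site (11.6%) or the letters GATAAG of a GATA site (6.19%). The Scn7a window held GGGCGG 1 time. A match is a description of letters, and a window without one says nothing of a factor's binding.

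Scn4b encodes a beta subunit that binds the alpha subunit covalently and is linked to resurgent sodium current. Its level was 195, 189 and 181 CPM in control hearts 1 to 3, from 510, 426 and 636 counts. In treated hearts 1 to 3 it was 97.9, 59.0 and 79.3 CPM, from 305, 189 and 269 counts. All doxorubicin hearts lay below all control hearts, and the highest doxorubicin heart was well under the lowest control. The group means were 188 ± 7.12 and 78.7 ± 19.5 CPM (SD, n = 3). On the log2 scale the fitted difference was -1.26 (SE 0.20), which is 2.39-fold lower in doxorubicin. Of 9205 symbols tested, 35 had a lower log2 fold change, a rank favoured by the choice of Scn4b through this same contrast.

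In Scn4b the control hearts were closer to each other than the doxorubicin hearts were. The SD of log2 CPM was 0.05 among controls, where the median of all tested symbols was 0.27 and only 3.14% of symbols had a smaller one. Among doxorubicin hearts it was 0.36, with a median of 0.26 over all symbols and 69.3% of symbols below it. The contrast that chose Scn4b favours genes with a small spread within groups, and the symbols compared include many with few reads. Nothing is read from these ranks. Doxorubicin library 2 was the lowest and doxorubicin library 1 the highest. Leaving out 1 library at a time moved the log2 fold change between -1.44, without doxorubicin library 1, and -1.07, without doxorubicin library 2.

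**Figure D1:**
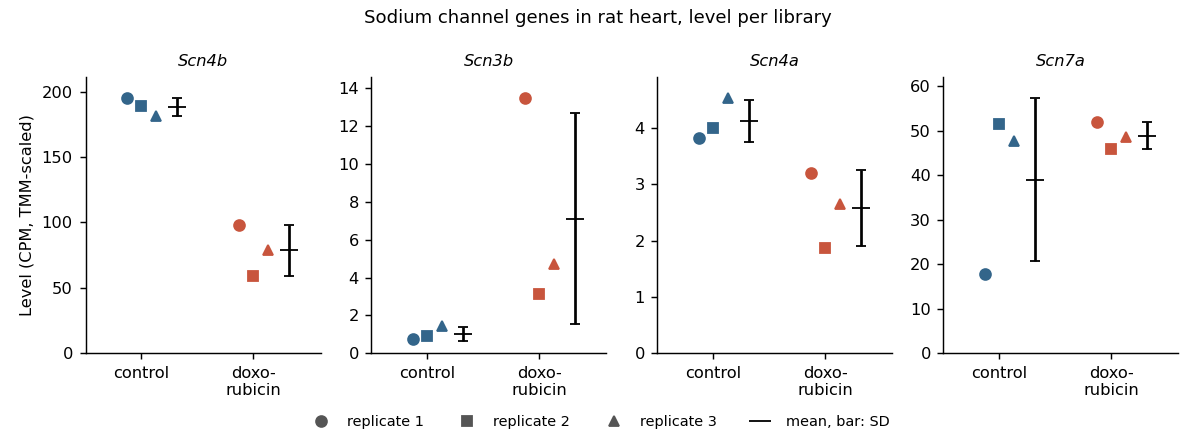
Level of the 4 members with reads in each library (y axes: TMM-scaled CPM, starting at 0, a separate scale per gene; x axis: group; marker shape: replicate number; bars: mean and SD of 3 libraries). Scn4b and Scn4a lie lower and Scn3b higher in every doxorubicin library, and Scn7a is low in control library 1 alone.

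In whole tissue, fewer cells of a type and less RNA per cell cannot be told apart. Beside the summed ventricular markers of the same library, Scn4b came to 1.90, 2.38 and 2.20 per 1000 CPM of those markers in control hearts 1 to 3, and to 1.17, 0.750 and 1.07 in treated hearts 1 to 3. The means were 2.16 ± 0.240 and 0.998 ± 0.221 (SD, n = 3). The sum hides markers that differ from each other: Irx4, a ventricular transcription factor gene, was 43.8 ± 11.6 CPM in control against 106 ± 29.7 CPM in treated hearts, and Tnni3, the cardiac troponin I gene, had a log2 fold change of -0.45. The part of cell content in the Scn4b difference was not tested. Markers of the conduction system, whose cells also carry Scn4b, summed to 77.8 to 112 CPM in control against 67.4 to 109 CPM in treated hearts, overlapping ranges. Of those 7 markers 2 were at 0 in all libraries, Etv1 among them, and the part of conduction tissue in the Scn4b difference was not tested.

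Scn3b encodes a beta subunit without the covalent link. It had 2, 2 and 5 counts in control hearts 1 to 3, against 42, 10 and 16 in treated hearts 1 to 3. In level this was 0.764, 0.889 and 1.42 CPM against 13.5, 3.12 and 4.72 CPM. All doxorubicin hearts lay above all control hearts, with doxorubicin library 1 far above the other two. The ratio of summed, depth-scaled counts was 6.53 (95% counting interval 3.24 to 14.9). Without doxorubicin library 1 it was 3.67, smaller and in the same direction.

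Scn3b did not enter the test across all symbols, because only 2 libraries, both from doxorubicin hearts, reached the filter's 3.23 CPM where 3 were needed. Fitted without the filter, its log2 fold change was 2.70 (SE 0.63). The doxorubicin libraries ranked 1 above 3 above 2 in Scn3b. They ranked the same in Nppa, the atrial natriuretic peptide gene, at 3250, 902 and 277 CPM. Of the other atrial markers Myl4 shared this order, while Myl7, Sln, Nr2f2, Kcnj3 and Bmp10 did not. Nothing is read from a shared order of 3 libraries. The 7 atrial markers as a list summed to 225 to 727 CPM in control against 318 to 3312 CPM in treated hearts. In treated heart 1 Nppa alone was 3250 of the 3312 CPM, and Myl7 was 2.06 to 6.42 CPM in the treated hearts. None of the 7 was at 0 in all libraries, and 1, Bmp10, had at most 3 counts in each. The part of atrial tissue in the Scn3b difference was not tested.

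Together the beta subunit genes Scn4b, Scn3b and Scn2b had 428 to 642 counts in control and 199 to 347 counts in doxorubicin libraries. Scn3b took 0.390% (Wilson 95% interval 0.107 to 1.41), 0.467% (0.128 to 1.69) and 0.779% (0.333 to 1.81) of these in control hearts 1 to 3. It took 12.1% (9.08 to 16), 5.03% (2.75 to 9) and 5.59% (3.47 to 8.89) in treated hearts 1 to 3. The intervals of doxorubicin hearts lay above those of control hearts. Most of the counts in the divisor are from Scn4b, whose fall chose the list, so a lower Scn4b alone raises the Scn3b share. Nothing is read from this separation. Scn4b kept the bulk of these counts in every heart, 99.1% to 99.5% in control and 87.9% to 95% in doxorubicin libraries. These shares are of reads and are not corrected for transcript length.

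Scn4a encodes the alpha subunit of skeletal muscle. It had 10, 9 and 16 counts in control hearts 1 to 3, and 10, 6 and 9 in treated hearts 1 to 3. The levels were 3.82, 4.00 and 4.54 CPM against 3.21, 1.87 and 2.65 CPM. The groups did not overlap, but on so few reads the ratio of 0.617 had a counting interval of 0.354 to 1.06 that included equality. The log2 fold change was -0.68 (SE 0.46). All 3 control libraries but only 1 doxorubicin library met the low-count filter, so Scn4a was tested because of the group in which it was higher. In the RefSeq gene list a long noncoding RNA gene on the other strand overlaps Scn4a, and without strand its reads could not be told apart. The 8 skeletal muscle markers summed to 1.33 to 1.99 CPM in control against 1.18 to 5.62 CPM in treated hearts, with Tnnt3 and Pax7 at 0.

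Scn7a encodes an atypical channel that senses extracellular sodium and does not open by voltage as its relatives do. Its level was 17.9, 51.5 and 47.7 CPM in control hearts 1 to 3 and 52.0, 45.9 and 48.6 CPM in treated hearts 1 to 3. The groups overlapped, and control library 1 alone was low. The log2 fold change was 0.32 (SE 0.30) with all libraries and -0.015 without control library 1. The SD of log2 CPM was 0.83 among controls, larger than that of 96.6% of tested symbols, and 0.09 among doxorubicin hearts. Fibroblast markers, whose cells can carry Scn7a, summed to 5221 CPM in control library 1 against 4876 and 5226 CPM in the other controls. Schwann cell and glial markers summed to 25.6 CPM in control library 1 against 36.0 and 15.9 CPM, with 3 of the 8 markers, Kcna1 among them, at 0. The single markers differed from these sums: of 7 fibroblast markers, 4 were lowest of the controls in control library 1, among them Dcn at 522 CPM against 902 and 882 CPM, while Gsn made up 3700 CPM of the fibroblast sum there. Of 5 Schwann and glial markers with counts, 3 were lowest there, Sox10 and Cdh19 among them. The part of these cells in the Scn7a value of control library 1 was not tested.

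**Figure D2:**
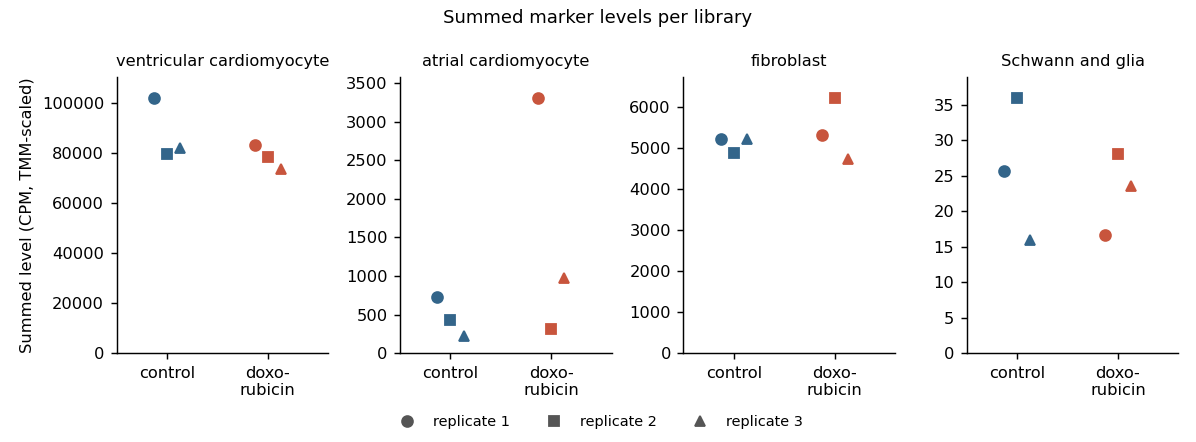
Summed level of 4 marker lists in each library (y axes: TMM-scaled CPM summed over the list, starting at 0; x axis: group; marker shape: replicate number). All 4 lists overlap between groups. The atrial sum is high in doxorubicin library 1, at 3312 CPM, of which Nppa alone was 3250 CPM.

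Against all tested symbols the members were read as follows. By edgeR's quasi-likelihood test 5 of 9205 symbols, 0.0543%, had a Benjamini-Hochberg adjusted p under 0.05. Scn4b was 1 of these 5, and that call is why the list is centred on it, so it is no test of the list. It was made in 0 of the 6 fits that left out a library. Groups did not overlap for 13.4% of tested symbols, 7.06% lower and 6.39% higher in doxorubicin. Of the 3 members that passed the filter, Scn4b and Scn4a lay lower without overlap, Scn4a having passed mainly through the control hearts. Nothing is read from these counts, since the contrast chose the list.

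**Figure D3:**
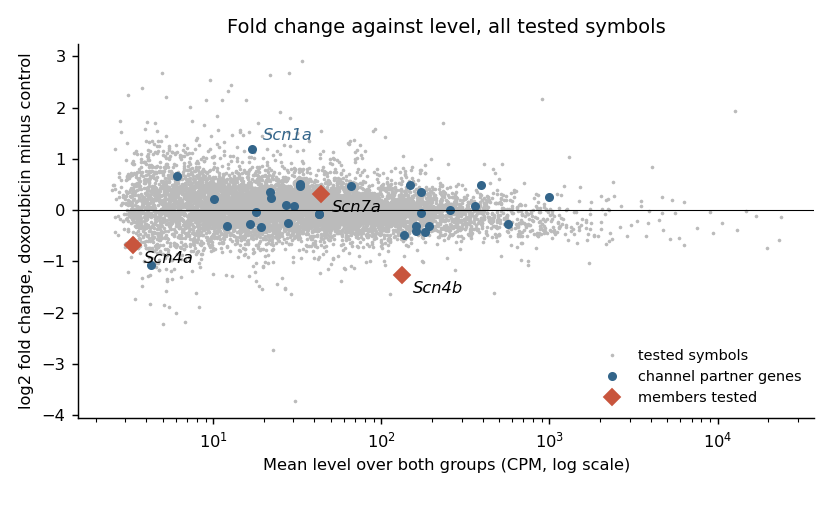
Log2 fold change, doxorubicin minus control (y axis), against mean level in CPM (x axis, log scale) for 9205 tested symbols (grey), 31 tested channel partner genes (blue) and the 3 tested members (red diamonds). Scn4b, chosen through this same contrast, lies at -1.26, with 35 symbols lower, and Scn7a lies at 0.32.

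The symbols whose pattern over the 6 libraries was most like that of Scn4b were sought by the root mean square difference of log2 CPM, each gene centred on its own mean. Among 5855 candidates with a mean of at least 20 CPM the median difference was 0.70, and a gene at the same level in all libraries would score 0.67. Nrarp, a Notch pathway inhibitor, was closest at 0.29, with 55.4, 36.4 and 38.9 CPM in control against 28.6, 20.6 and 19.5 CPM in treated hearts 1 to 3. Ttc7a and Piwil2 also scored 0.29, and Rita1 and Cryl1 scored 0.32. Their log2 fold changes lay between -1.03 and -0.71. This is a ranking by likeness and carries no test.

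The rest of the channel complex was looked at through a list of 44 partner genes. Of these 40 were in the table and 31 were tested. None of the 31 passed the adjusted threshold in edgeR, and none did under DESeq2. At an unadjusted p under 0.05 there were 2 lower and 3 higher, against 4.11% and 4.00% of all tested symbols. The median log2 fold change of the list was 0.01, beside 0.02 for all tested symbols, with 15 genes below 0 and 16 above.

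Among the 8 other alpha subunit genes, Scn1a was the only one with enough reads to test. It encodes a channel best known from neurons and also present at low level in heart muscle. Its level was 7.64, 9.33 and 13.6 CPM in control hearts 1 to 3 and 27.6, 17.8 and 25.6 CPM in treated hearts 1 to 3. Every doxorubicin heart lay above every control heart. The neuronal markers, 7 of 8 in the table, summed to 5.33 to 6.53 CPM in control against 7.37 to 8.42 CPM in treated hearts. This small sum also did not overlap, which held for 13.4% of single tested symbols. Dbh and Tubb3, with at most 14 and 10 counts in any library, made up most of it. Uchl1 was 1.43 CPM in control against 1.45 CPM in treated hearts. Snap25, Chat and Chrna3 were at 0, and the part of nerve tissue in the Scn1a and Scn3b values was not tested. The log2 fold change of Scn1a was 1.19 (SE 0.30), with an unadjusted p of 0.00155 and an adjusted p of 0.190 in edgeR, which missed the threshold. Over 14 alternative fits it lay between 1.02 and 1.48, and the adjusted p from edgeR, DESeq2 or limma lay between 0.0652 and 0.562.

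Several other alpha subunit genes were near the floor. Scn3a had 3 to 6 counts in control and 3 to 8 in doxorubicin libraries. Scn2a had 1 count in each control library and 0, 8 and 2 in treated hearts 1 to 3. Scn10a had at most 4 counts and Scn9a at most 1, and Scn8a and Scn11a were listed at 0 throughout. Scn9a lies next to Scn7a in the RefSeq gene order and had 1 count in all, while Scn7a had reads in each library.

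Fgf12, the homologous factor gene with the most reads here, had 30.4 ± 6.19 CPM in control against 25.5 ± 5.10 CPM in treated hearts (SD, n = 3). For Fgf12 the fitted log2 fold change, -0.25 (SE 0.25), had an adjusted p of 0.833 in edgeR, and was -0.39 without control library 1. Fgf11 and Fgf14 had at most 1 count in any library.

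**Figure D4:**
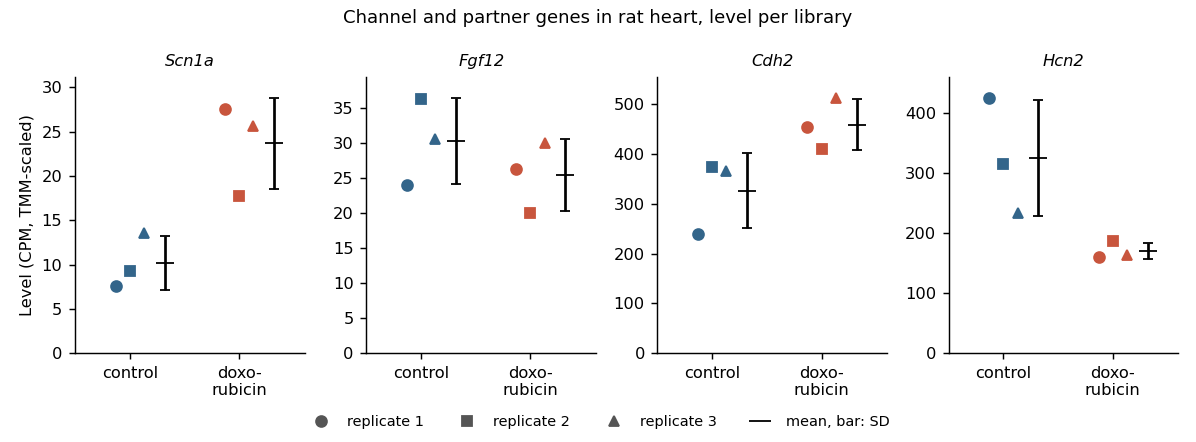
Level of Scn1a, Fgf12, Cdh2 and Hcn2 in each library (y axes: TMM-scaled CPM, starting at 0; x axis: group; marker shape: replicate number; bars: mean and SD of 3 libraries). Scn1a and Cdh2 are higher and Hcn2 lower in every doxorubicin library, and none of the 4 passed the adjusted threshold in edgeR.

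Of the 18 tested genes for anchors, kinases and other channel-binding proteins, 7 had a log2 fold change below 0 and 11 above. Rangrf, which encodes a protein that helps the channel reach the membrane, was 159 ± 34.5 CPM in control against 114 ± 22.0 CPM in treated hearts (log2 fold change -0.48, SE 0.21, edgeR adjusted p 0.576; -0.29 without control library 1). Cdh2, which encodes N-cadherin of the intercalated disc, was 327 ± 74.9 against 459 ± 51.6 CPM (0.49, SE 0.20, edgeR adjusted p 0.548; 0.32 without control library 1). Neither passed the threshold. Of 10 tested transcription factor genes, Gata6 had the smallest p, at 123 ± 6.15 CPM in control against 173 ± 28.8 CPM in treated hearts (0.49, SE 0.18, edgeR adjusted p 0.471).

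A second list held 21 genes for sodium pumps, exchangers, cotransporters and pacemaker channels, of which 16 were tested. In edgeR 0 of the 16 passed the adjusted threshold, and 2 were lower and 0 higher at an unadjusted p under 0.05, against 4.11% and 4.00% of all tested symbols. The list's median log2 fold change was -0.24, beside 0.02 for all tested symbols, with 12 genes below 0 and 4 above. The sodium-calcium exchanger gene Slc8a1, abundant in heart muscle, was listed at 0 in all libraries as Fgf13 was.

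Hcn2, which encodes a pacemaker channel permeable to sodium and potassium, was 425, 314 and 234 CPM in control against 160, 186 and 164 CPM in treated hearts 1 to 3. All doxorubicin hearts were below all controls. The log2 fold change was -0.93 (SE 0.22) with an edgeR adjusted p of 0.157, and -0.68 without control library 1. DESeq2 gave an adjusted p of 0.0157, within a range of 0.0157 to 0.416 over 14 alternatives, 2 of which passed. Slc4a4, a sodium bicarbonate cotransporter gene, differed by 0.99 on the log2 scale (SE 0.54), from 4 to 24 reads per library. Atp1b2, a sodium pump beta subunit gene, differed by -0.30 (SE 0.20). The edgeR adjusted p was 0.677 for Slc4a4 and 0.732 for Atp1b2.

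**Figure D5:**
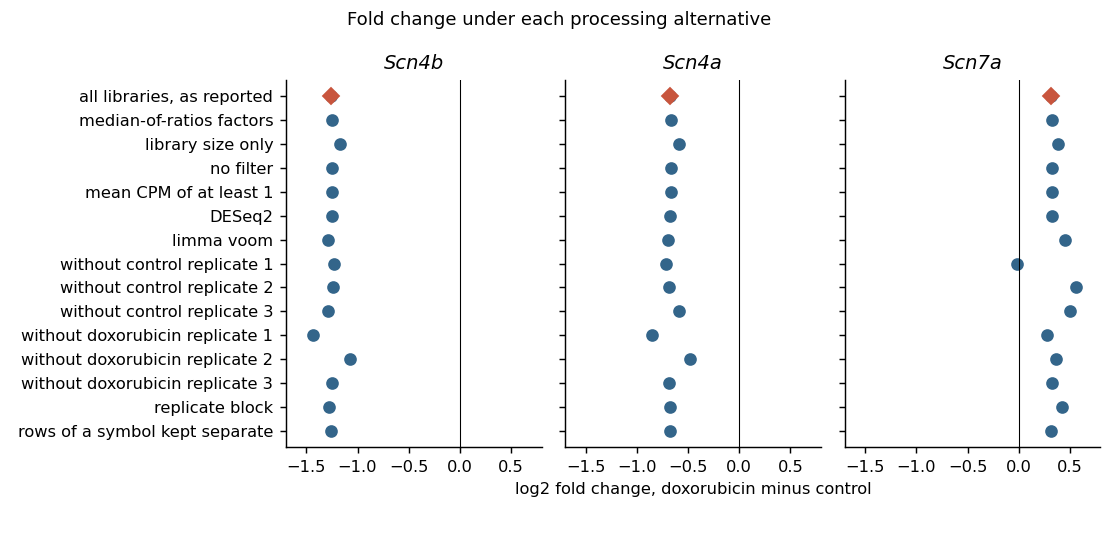
Log2 fold change, doxorubicin minus control (x axis), of the 3 tested members under 14 processing alternatives, without non-robust dispersion (y axis, with a red diamond for the value reported). Scn4b stays between -1.44 and -1.07, Scn4a between -0.85 and -0.48, and Scn7a falls to -0.015 without control library 1.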

How the data were processed

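The authors deposited raw read counts per gene row for 6 libraries, with no normalization. FastQC, Trimmomatic, STAR, HTSeq and the build mRatBN7.2 are named in the submitters' processing notes, and strand use, counting mode and annotation were not given in the sources used here. Per the labels' protocols, libraries were made with a Watchmaker mRNA kit and sequenced on a NovaSeq instrument. The 18473 rows were summed to 17487 symbols. edgeR 4.0.16 (R 4.3.3) was run with TMM, filterByExpr (minimum count 10, minimum total 15), robust dispersion and a quasi-likelihood test of doxorubicin against control, with Benjamini-Hochberg adjustment over the 9205 symbols kept and a threshold of 0.05. The p-values measure the spread between single hearts.

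Log2 CPM used a prior count of 2. Counting intervals for ratios were exact conditional intervals at 95%. The script was tested on simulated data. Alternatives were median-of-ratios factors, library size only, no filter, a mean CPM of 1, DESeq2 1.42.0, limma 3.58.1 voom, non-robust dispersion, leaving out each library, the replicate block, and unsummed rows. Fits leaving out a library kept the same 9205 symbols. Non-robust dispersion was used only for the number of symbols past the threshold. The tested members, the named partner and transport genes and the 2 lists therefore have 14 alternatives. No 2 libraries of a group agreed within sampling noise (chi-square per degree of freedom at least 4.28).

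The members and gene lists were chosen with earlier results of these data known. Named partner and transport genes were those past the threshold, the 4 smallest p-values per list, and the other channel subunit and homologous factor genes with counts; some genes of these lists and of the marker lists are not reported here by name, and the counts include them. Python 3.11.15, pandas 2.3.3, scipy 1.17.1 and matplotlib 3.10.9 were used for tables, intervals and figures.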

Additional observations from a re-analysis of the deposited data

How the results depend on the processing

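Scn4b and Scn4a kept their direction in all 14 alternatives, Scn4b between -1.44 and -1.07 and Scn4a between -0.85 and -0.48, the ends coming from fits that left out a doxorubicin library. Scn7a lay between -0.015 and 0.56 when 1 library was left out and changed sign only without control library 1. The Scn3b ratio of 6.53 lay between 3.67, without doxorubicin library 1, and 8.52, without control library 3, and was 6.93 with library size only. The Scn3b alternatives and those for single partner and transport genes were added after the data were seen, and those genes kept their direction in each alternative that tested them.

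Against 5 symbols past the adjusted threshold, 0 passed with library size only (713 at an unadjusted p under 0.05) and 0 with limma voom (740), 61 with no filter, 76 with DESeq2 and 1 with non-robust dispersion. Leaving out 1 library gave 0 to 34 symbols, the 34 without doxorubicin library 2. In edgeR removing control heart 1 or 3, or treated heart 1 or 3, left 0 symbols each time, with 514, 623, 605 and 592 at an unadjusted p under 0.05. The replicate block gave 13, 9 higher and 4 lower. Same-numbered libraries are different animals and share only a number, with correlations of their deviations from group means of 0.0211, -0.185 and -0.0559 for numbers 1, 2 and 3. Channel partner genes stayed at 0 in all 14 alternatives, and sodium transport genes went from 0 to 1, Hcn2, with no filter and with DESeq2. The cause of these shifts was not tested. Few reads limit Scn4a and Scn3b, with at most 16 counts in any control library. Scn2b and Fgf13 have no fold because both groups were at or under the floor, and the cause of their low counts was not tested.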
